A study of Mus musculus with 10 samples.

Results

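Wild-type ezrin put back into ezrin-disrupted osteosarcoma cells was compared with an empty vector in the same disrupted cells. The comparison uses 4 of the 10 RNA-seq libraries of the study, 2 of a wild-type ezrin line and 2 of an empty-vector line, and covers the 12595 of 41743 gene names that passed a filter on low counts. The starting cells were K7M2, a mouse osteosarcoma line. CRISPR/Cas9 disrupted the ezrin gene (genotype Ezrin -/-), and the disrupted cells were stably transfected with a vector carrying a wild-type EZRIN cDNA or with the vector alone. Both lines therefore share the disruption and a stable transfection, neither was treated, and they differ in the cDNA. The other 6 libraries are of parental K7M2 cells and of disrupted cells with ezrin T567A or ezrin T567D. They entered the same fit, and their levels are given only as a description. Only 1 stable line carried each vector, and effects of the cDNA and of the line cannot be told apart. The titles of the derived lines share the tag col3, and the species and sequence of the cDNA are not given in the labels.

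Ezrin, with moesin and radixin, belongs to the ERM family, whose members tie actin filaments to membrane proteins such as CD44 and podocalyxin. In its closed form both ends of ezrin fold onto each other and hide these binding sites, and binding of the membrane lipid PIP2 and phosphorylation of a C-terminal threonine favour the open form. Ezrin has long been studied in osteosarcoma for its part in metastasis to the lung.

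Total counts were 16846966 and 17157736 in the wild-type libraries and 17669729 and 17227902 in the empty-vector libraries. Counts of at least 1 were found for 16087 and 16100 gene names in wild-type libraries, against 15435 and 15343 in empty-vector libraries. Of the bone markers, Col1a1, Col1a2, Runx2, Spp1 and Alpl were present in all 4 libraries, while Sp7, Ibsp and Bglap had 0 to 2 counts in each. Of 8 leukocyte markers, Ptprc, Adgre1 and Cd3e were at 0 in all 4 libraries, while Csf1r, the receptor of the macrophage growth factor CSF1, was at 1379 and 1390 CPM in wild-type libraries and 1549 and 1594 CPM in empty-vector libraries. Cd68 had 40 and 46 counts in wild-type libraries and 38 and 37 in empty-vector libraries. Endothelial Emcn and Tie1, epithelial Epcam and Krt14, adipocyte Adipoq, Plin1 and Lpl, cartilage Acan and Col9a1 and muscle Myog and Ckm were at 0 in all 4. The summed level of each of these 5 marker lists was at most 3.96 CPM in any of the 4 libraries. Within them endothelial Cdh5 had 24 and 19 counts in wild-type libraries and 29 and 34 in empty-vector libraries. The cartilage regulator gene Sox9 was called higher, at 3.43 and 3.31 CPM in wild-type libraries and 1.58 and 1.21 CPM in empty-vector libraries. The muscle gene Des was called higher too, with 9 and 8 counts in wild-type libraries and 0 in both empty-vector libraries. The adipocyte gene Fabp4 was at 3.32 and 3.2 CPM in wild-type libraries and 1.98 and 1.97 CPM in empty-vector libraries, and leukocyte Lyz2 had 29 and 31 counts in wild-type libraries and 4 and 13 in empty-vector libraries. Both were called, but with a library left out their adjusted p reached 0.2 for Fabp4 and 0.25 for Lyz2. The part of such cells in the results was not tested. Whether the libraries of 1 line are separate cultures is not stated in the labels. The p-values below then reflect how much these libraries vary, which may be technical variation alone. Levels are given in CPM, the count scaled to the TMM-adjusted library total. Differences are log2 fold changes, wild type minus empty vector, ± standard error (SE). A gene was called where the quasi-likelihood test of edgeR gave a p under 0.05 after Benjamini-Hochberg adjustment over all tested genes.

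Ezr is the disrupted and restored gene (GRCm38 chromosome 17, minus strand, 6738041 to 6782784). It was at 230 and 233 CPM in the wild-type libraries, against 72.4 and 72.9 CPM in the empty-vector libraries. Both wild-type libraries were thus above both empty-vector libraries, by 3.19-fold (log2 fold change 1.67 ± 0.066, adjusted p = 2e-13). Such a lack of overlap was common, found for 61.5% of all tested genes. Counts per gene do not separate mRNA of the vector from that of the disrupted gene, and the empty-vector line still held Ezr mRNA. The mouse coding sequence encodes 586 residues, and the stretch around the regulatory threonine is shown because it is the residue that the wild-type construct keeps by its name. It is from a GENCODE M21 transcript (GRCm38, chromosome 17, minus strand), 5′ to 3′, with the codon of T567 in capitals.
Ezr: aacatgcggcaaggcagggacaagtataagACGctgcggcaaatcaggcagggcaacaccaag

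The other ERM genes were not called. Msn, which encodes moesin, was at 534 and 520 CPM in wild-type libraries and 530 and 527 CPM in empty-vector libraries, which overlap, and its difference was -0.00 ± 0.056 (adjusted p = 0.98). Rdx, which encodes radixin, was at 219 and 221 CPM in wild-type libraries and 242 and 249 CPM in empty-vector libraries (-0.16 ± 0.062, adjusted p = 0.094). Among 19 tested genes of ERM proteins, their membrane partners and their kinases, 7 were called higher, 2 lower and 10 were not called. Over all tested genes 8.25% were called higher and 7.36% lower. Podxl, which encodes the ezrin-binding sialomucin podocalyxin, was at 9.89 and 9.37 CPM in wild-type libraries and 3.5 and 3.01 CPM in empty-vector libraries (1.56 ± 0.16, adjusted p = 1.1e-06). Prkca, the gene of protein kinase C alpha, which can phosphorylate ezrin, was at 189 and 194 CPM in wild-type libraries and 138 and 146 CPM in empty-vector libraries (0.44 ± 0.062, adjusted p = 5.3e-05), in the raised run of chromosome 11 (neighbour median 0.23). Cd44, the hyaluronan receptor, was called higher (0.2, means of 633 CPM in wild type and 551 CPM in empty vector), but not when any 1 of the 4 libraries was left out (adjusted p up to 0.21). Spn, the gene of the sialomucin CD43, fell to 21 and 17.7 CPM in wild-type libraries, against 27.2 and 30.5 CPM in empty-vector libraries (-0.58 ± 0.099, adjusted p = 0.00039). With any 1 of the 4 libraries left out, 4 members of this group were called higher and 1 lower. Without empty-vector replicate 3 and without wild-type replicate 1, Slc9a3r1, the scaffold NHERF1 (neighbour median 0.27), was among those not called (adjusted p of 0.11 and 0.14).

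Across all tested genes the differences were many and mostly small. Of 12595 genes, 1966 were called (15.6%), 1039 of them higher in wild-type ezrin cells (8.25%) and 927 lower (7.36%). The counts of each gene list below stand against these shares. Some lists were near or under the 15.6%. These were the unfolded protein response (16.7% called), Wnt genes (13.3%), Ras and ERK response genes (10.3%) and cytosolic chaperones (6.67%). Translation initiation factors had 23.1% called and magnesium channels and transporters 25%. The median difference over all tested genes was -0.01, with an interquartile range of -0.13 to 0.16, and the median size among called genes was 0.36. Upper-quartile scaling in place of TMM gave 1249 higher and 674 lower, 65% of calls higher against 52.8%. Large changes ran mostly one way: 221 called genes (1.75% of those tested) differed over 2-fold, 190 of them higher in wild-type cells and 31 lower. Against a 1.5-fold null, 72 genes were called higher and 15 lower.

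The imbalance lay among weakly expressed genes. Of the 3589 tested genes with means under 10 CPM in the higher line, 324 were called higher and 65 lower, and 164 and 20 of these passed 2-fold. Of the 9006 genes at 10 CPM or more, 715 were called higher and 862 lower, and 26 and 11 passed 2-fold. Gene names outside the test summed, on the CPM scale of the unadjusted total, to 534 and 533 CPM in wild-type libraries, against 401 and 377 CPM in empty-vector libraries. The same sum was 377 and 391 CPM for parental cells, 507 and 460 CPM for T567A cells, and 519 and 543 CPM for T567D cells. The part of this difference in the counts of low genes was not tested.

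Calls were also unevenly spread along the chromosomes. On chromosome 19, 157 of 470 tested genes were called higher and 8 lower, and the median difference was 0.22. On chromosome 11, 201 of 1005 were called higher and 32 lower, and on chromosome 13, 16 of 491 were called higher and 102 lower (median -0.12). When tested genes at 10 CPM or more were taken in blocks of about 40 along each chromosome, runs of adjacent blocks with a median beyond 0.1 in size stood on chromosomes 2, 11, 13 and 19. The run on chromosome 11 spanned 90.2 to 121.6 Mb, and in it 272 of 287 genes had a positive difference. In the run on chromosome 19, from 3.3 to 43.7 Mb, 236 of 270 genes were positive. In the run on chromosome 13, from 54.1 to 119.8 Mb, 193 of 210 were negative, and on chromosome 2, from 145.2 to 173.2 Mb, 133 of 160 were negative. These blocks were drawn after the values were seen and carry no test.

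**Figure D1:**
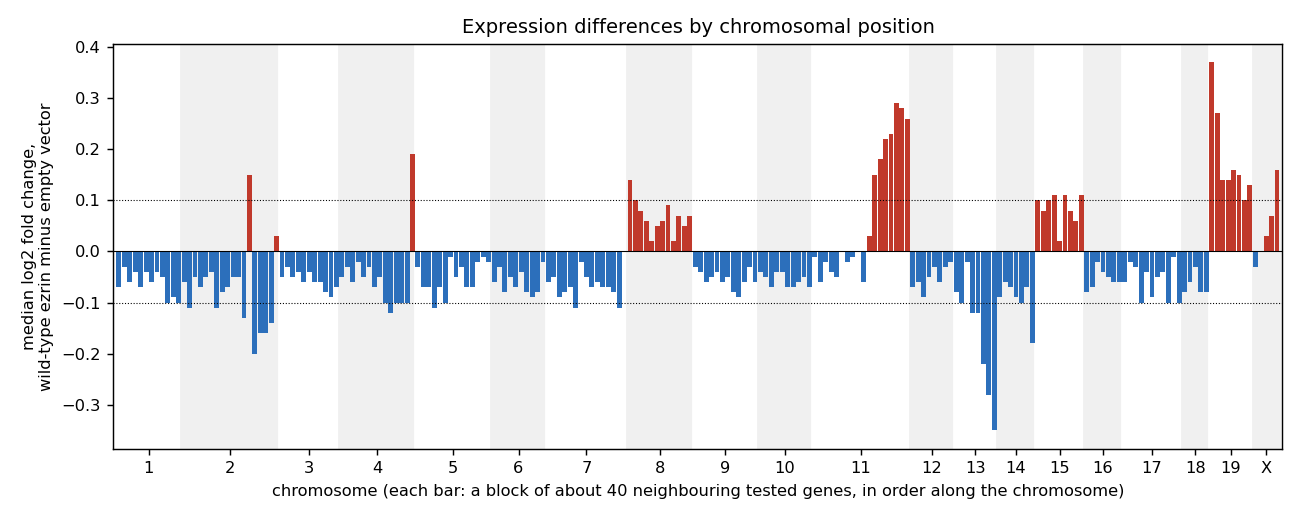
Median log2 fold change, wild-type ezrin minus empty vector, of blocks of about 40 neighbouring tested genes at 10 CPM or more, in order along each chromosome; dotted lines mark 0.1 and -0.1. Long runs of blocks above 0 stand on chromosomes 8, 11, 15 and 19, and the distal parts of chromosomes 2 and 13 hold runs below -0.1.

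The runs were shifted alike in both libraries of a line. The chromosome 13 run had a median level of -0.02 and 0 on the log2 scale in wild-type libraries, relative to the mean of all 10, and 0.2 and 0.22 in empty-vector libraries. The chromosome 19 run stood at 0.07 in both wild-type libraries and at -0.13 and -0.14 in empty-vector libraries. The chromosome 11 run stood at 0.13 and 0.12 in wild-type libraries and at -0.1 in both empty-vector libraries. For chromosomes 2, 13 and 19 the empty-vector libraries lay beyond all 8 others, with levels of 0.16 and 0.14 for chromosome 2. For chromosome 11 the wild-type libraries lay above all others, the nearest being T567A replicate 3 at 0.11. Of the 10025 genes whose 40 nearest neighbours had a median within 0.1 of 0, 1272 were called (12.7%), 596 higher and 676 lower. Of the 1210 genes whose neighbours had a median above 0.1, 391 were called higher and 17 lower. Of the 1250 with a neighbour median below -0.1, 41 were called higher and 230 lower. The cause was not tested, and the neighbour median is given below beside many of the genes that lie in such regions.

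**Figure D2:**
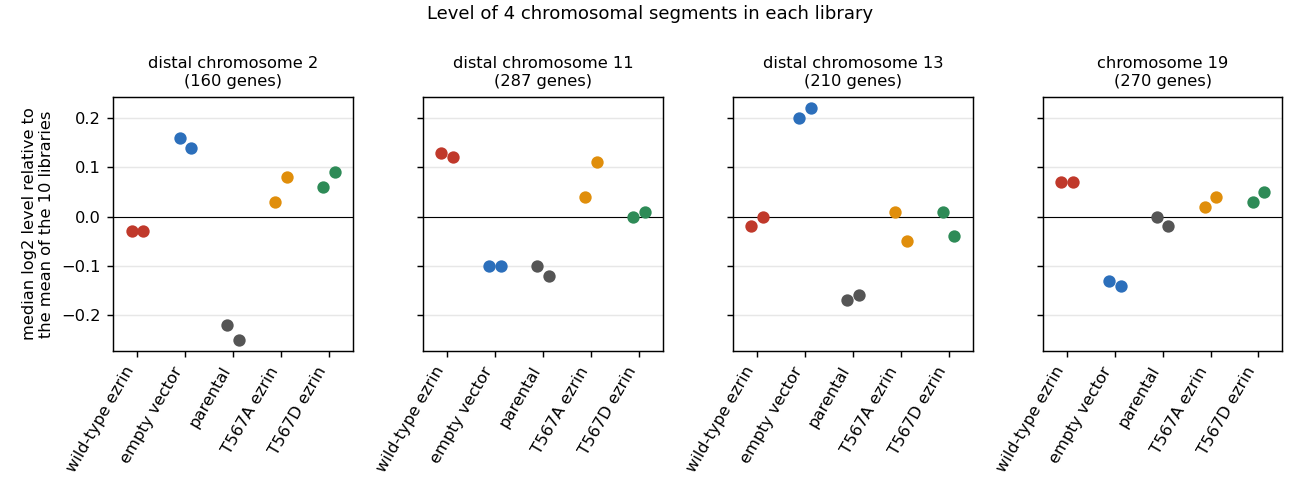
Median log2 level of the genes of each run in each of the 10 libraries, relative to the mean of the 10 (2 points per line, 1 per library). The empty-vector points stand above all others in the chromosome 2 run, at 0.16 and 0.14, and in the chromosome 13 run, at 0.2 and 0.22. In the chromosome 19 run, at -0.13 and -0.14, they stand below all others.

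Among genes at 10 CPM or more, the largest increase was in Trpm6, which encodes a magnesium channel. It was at 19.7 and 18.6 CPM in wild-type libraries, against 3.45 and 4.51 CPM in empty-vector libraries (2.26 ± 0.15, adjusted p = 1.3e-09). Trpm6 lies on chromosome 19 (18749983 to 18892511), where the neighbour median was 0.14. Of 16 tested magnesium channel and transporter genes 4 were called higher and none lower, with 1 or 2 higher when 1 of the 4 libraries was left out. Nipal3, a member of a magnesium transporter family, was at 8.32 and 8 CPM in wild-type libraries and 5.26 and 4.68 CPM in empty-vector libraries (0.71 ± 0.16), which did not pass in the fit that left out empty-vector replicate 3 (0.064, adjusted). The widely expressed channel gene Trpm7 did not pass (-0.12).

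The other large increases were in genes of varied roles. Ramp3, whose product pairs with the calcitonin receptor-like receptor, was at 24.8 and 24.9 CPM in wild-type libraries, against 7.74 and 7.63 CPM in empty-vector libraries (1.69 ± 0.12, adjusted p = 2.4e-09). Igfbp4, which encodes a binding protein that sequesters insulin-like growth factors, was at 38.3 and 37.2 CPM in wild-type libraries, against 12.1 and 11.6 CPM in empty-vector libraries (1.67 ± 0.09, adjusted p = 4.4e-11), with a neighbour median of 0.19 on chromosome 11. In Ramp3 the 2 libraries of a line lay within 1 CPM of each other. Lack of overlap between the lines was a condition for this list of increases. Rab3b, a small GTPase of regulated secretion, was at 10 and 11.5 CPM in wild-type libraries and 3.05 and 2.72 CPM in empty-vector libraries (1.9 ± 0.18). The phospholipase C genes Plce1 (1.41 ± 0.12) and Plcb4 (1.24 ± 0.15) were both higher. Each had a neighbour median of 0.15, Plce1 on chromosome 19 and Plcb4 on chromosome 2. Anpep, the gene of aminopeptidase N, was at 12.1 and 11.1 CPM in wild-type libraries, against 4.86 and 4.11 CPM in empty-vector libraries (1.37 ± 0.14). Plat, the gene of tissue plasminogen activator, was at 69.9 and 66.4 CPM in wild-type libraries, against 28.5 and 30.6 CPM in empty-vector libraries (1.21 ± 0.084). Bace1 (1.2 ± 0.14), the beta-secretase, Fer1l6 (1.22 ± 0.11), of the ferlin family, and Krtap1-5 (1.21 ± 0.21), a hair keratin-associated gene with close relatives beside it and a neighbour median of 0.19 on chromosome 11, completed the list together with matrix genes described below.

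**Figure D3:**
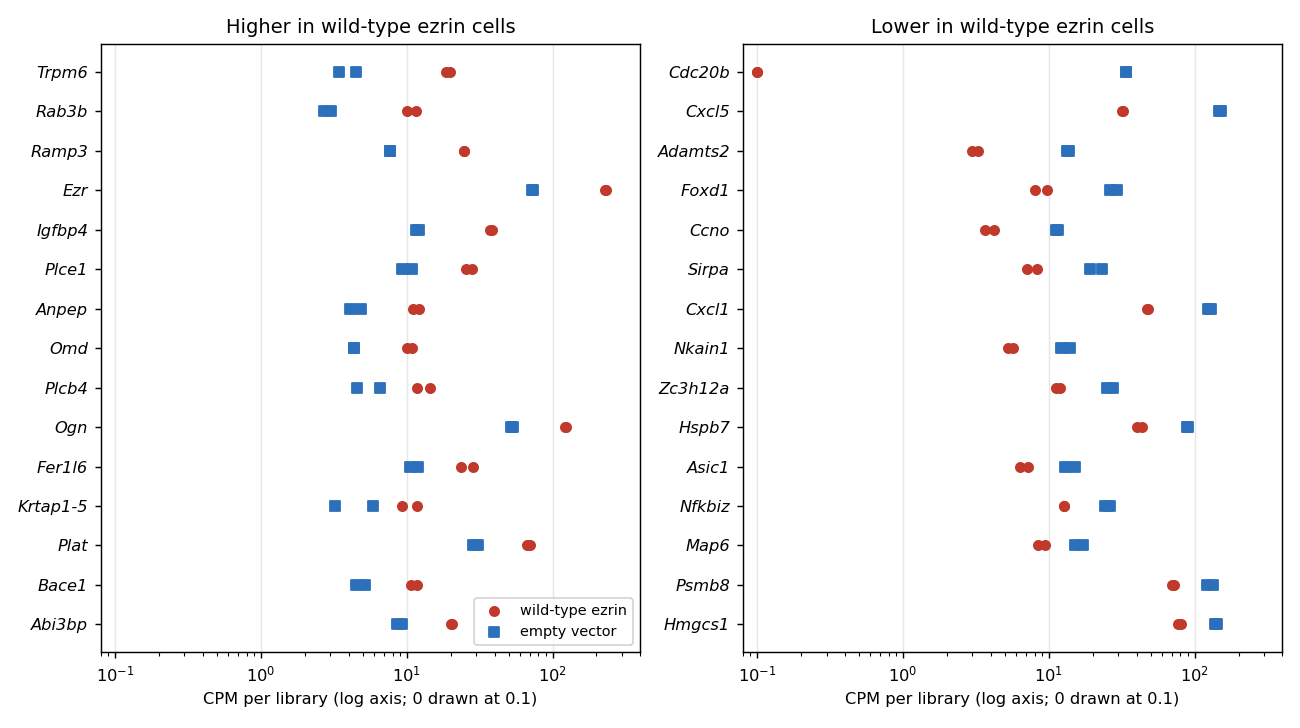
CPM in each library (log axis) of the 15 largest called increases and the 15 largest called decreases among genes at 10 CPM or more in the higher line; circles are wild-type and squares empty-vector libraries. Lack of overlap between the lines was a condition for showing a gene, and was found for 61.5% of all tested genes. Trpm6 is at 19.7 and 18.6 CPM in wild-type against 3.45 and 4.51 CPM in empty-vector libraries. Cdc20b is at 0 in both wild-type libraries.

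The largest decrease was in Cdc20b, a relative of the mitotic activator gene Cdc20 known mainly from multiciliated cells. It had 0 counts in both wild-type libraries, against 601 and 585 counts (34 and 33.8 CPM) in the empty-vector libraries. Against a floor of 3 counts per library it was at least 196-fold lower in wild-type cells. Cdc20b was also at 0 in the parental and T567A libraries and at 0.117 CPM in 1 T567D library. It lies on chromosome 13 (113035111 to 113091195) beside other genes that fell. Ccno, a cyclin of ciliogenesis whose gene neighbours it, was at 4.25 and 3.66 CPM in wild-type libraries, against 11.2 and 11.6 CPM in empty-vector libraries (-1.53 ± 0.16). Mtrex (-0.55), Dhx29 (-0.47) and Snx18 (-0.53) nearby were lower too, while Gpx8, inside the Cdc20b locus, was not called (0.09). In the other direction Alx4, a homeobox gene of limb and skull patterning, had 52 and 34 counts in wild-type libraries (3.03 and 1.94 CPM) and 0 and 1 in empty-vector libraries. That is a ratio of 85.9, with an exact 95% interval of 15.2 to 3465 that covers counting error only.

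Another group of neighbours differed in the low range, 3 genes on chromosome 2 from 178411206 to 178487366, chosen after their values were seen. Fam217b was at 9.6 and 7.31 CPM in wild-type libraries and 0.283 and 0.405 CPM in empty-vector libraries. The cadherin gene Cdh26 was at 10 and 9.65 CPM in wild-type libraries and 0.735 and 0.636 CPM in empty-vector libraries. Ppp1r3d, beside them, was at 0.466 and 0.628 CPM in wild-type libraries and 0.0565 and 0.0578 CPM in empty-vector libraries, where it had 1 count in each. Parental libraries were near the wild-type line, with 9.07 and 8.75 CPM of Cdh26, and T567A libraries near the empty-vector line, with 0.207 and 0.445 CPM.

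The chemokine genes Cxcl5 and Cxcl1, whose products attract neutrophils, were among the largest decreases. Cxcl5 (chromosome 5, 90759360 to 90761624) fell to 32.1 and 31.9 CPM in wild-type libraries, against 152 and 148 CPM in empty-vector libraries (-2.23 ± 0.089, adjusted p = 2.8e-13). Cxcl1 (chromosome 5, 90891241 to 90893115) fell to 47.1 and 48 CPM in wild-type libraries, against 129 and 124 CPM in empty-vector libraries (-1.41 ± 0.068, adjusted p = 5.8e-12). The libraries of a line differed little beside this gap, and the neighbours of both genes had medians of -0.08 and -0.09. Of 15 tested chemokines (24 listed) 5 were called lower and 3 higher, and with 1 of the 4 libraries left out 3 or 4 were lower and 1 or 2 higher. Ccl2, which attracts monocytes, was at 123 CPM on average in wild-type and 159 CPM in empty-vector cells (-0.37 ± 0.074, adjusted p = 0.0017). The interferon-inducible Cxcl11 went the other way, at 7.33 and 6.85 CPM in wild-type libraries and 3.17 and 3.76 CPM in empty-vector libraries (1.03 ± 0.16).

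Some inflammatory genes under NF-kappaB were lower as well. NF-kappaB is held in the cytoplasm by inhibitor proteins and, once freed, switches on chemokine and cytokine genes at kappaB sites. Of 22 tested targets 9 were called lower and 1 higher, with a median of -0.21, against 7.36% lower and a median of -0.01 over all genes. Leaving out 1 of the 4 libraries gave 4 to 6 lower. Nfkbiz, the gene of the nuclear co-regulator IkappaB-zeta, was at 12.7 CPM in both wild-type libraries, against 26.2 and 24.4 CPM in empty-vector libraries (-0.99 ± 0.11, adjusted p = 3.8e-06). Zc3h12a, the gene of the ribonuclease Regnase-1 that degrades cytokine mRNAs, was at 11.3 and 11.9 CPM in wild-type libraries, against 27.5 and 25.2 CPM in empty-vector libraries (-1.18 ± 0.099). Lif, a cytokine of the IL-6 family, was at 9.49 and 10 CPM in wild-type libraries and 15.9 and 15.4 CPM in empty-vector libraries (-0.68 ± 0.12). C3, the central complement gene, was lower as well (-0.49 ± 0.07). The inhibitor gene Nfkbia was called (-0.25), but not in 3 of the 4 fits that left out a library (adjusted p up to 0.11). Ptgs2 (-0.01), Vcam1 (0.05), Tnfaip3 (0.21) and Nfkb2 (0) were not. Icam1, the adhesion receptor that was the 1 member called higher, was weak at 1.98 and 2.68 CPM in wild-type libraries and 0.848 and 1.1 CPM in empty-vector libraries. It was not called in the fits that left out empty-vector replicate 2 or wild-type replicate 3 (adjusted p of 0.081 and 0.093).

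The promoter of Cxcl1 is shown for its kappaB-type letters. GGG, 2 free bases and then TTTCC was searched on both strands in 250 bases before to 50 after the start in the RefSeq promoter table (GRCm38.p6), and was in 4 of 11 promoters of tested chemokines (36.4%), against 1.63% of all 32851 promoters. In the sequence, chr5:90890995-90891294 on the plus strand, 2 matches stand in capitals, at -89 on the minus strand and at -71 on the plus strand. The share was taken over tested chemokines, called or not. Among those with the letters only Cxcl1 was called, and Cxcl5 was not among them. A match is a description of the letters only.
Cxcl1: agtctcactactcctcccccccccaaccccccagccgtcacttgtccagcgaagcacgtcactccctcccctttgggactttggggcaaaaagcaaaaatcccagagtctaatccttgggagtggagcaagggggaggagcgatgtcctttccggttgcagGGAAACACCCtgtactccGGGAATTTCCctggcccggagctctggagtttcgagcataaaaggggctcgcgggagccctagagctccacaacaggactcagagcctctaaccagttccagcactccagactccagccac

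Of the genes of MHC class I antigen processing, 9 of 20 were called lower and none higher (median -0.2), and 4 were called lower without each of the 4 libraries in turn. Psmb8, an immunoproteasome subunit gene, fell to 71.7 and 69.6 CPM in wild-type libraries, against 134 and 121 CPM in empty-vector libraries (-0.85 ± 0.075, adjusted p = 9.7e-08). Tap2, a subunit of the peptide transporter, was at 69.4 and 64 CPM in wild-type libraries and 91.7 and 84.1 CPM in empty-vector libraries (-0.4 ± 0.075). H2-Q4, a class I gene with near-identical relatives whose counts are uncertain, was lower (-0.35 ± 0.064), while H2-K1 (-0.05), H2-D1 (-0.01) and B2m (-0.1) were not called. Interferon-stimulated genes split: of 38, 4 were higher and 6 lower, with a median of -0.04, and with 1 of the 4 libraries left out 2 or 3 were lower. All 4 higher ones were of the Ifit cluster on chromosome 19, in the raised run, with neighbour medians of 0.15 to 0.17. Ifit3, which shares sequence with Ifit3b, was at 176 and 163 CPM in wild-type libraries and 119 and 114 CPM in empty-vector libraries (0.54 ± 0.063). Gbp3, an interferon-induced GTPase gene, was at 143 and 140 CPM in wild-type libraries and 180 and 183 CPM in empty-vector libraries (-0.36 ± 0.062). The regulators Irf9 (-0.04) and Irf7 (0.06) were not called.

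Cholesterol synthesis was the list with the largest share of calls. Cells make cholesterol from acetyl-CoA through mevalonate and squalene, and when membrane sterol is low the SREBP transcription factors, escorted by SCAP and retained by INSIG proteins, switch on these enzymes together. Of the 21 enzymes, all tested, 17 were called lower in wild-type ezrin cells and none higher, with a median of -0.45. The summed level was 1245 and 1231 CPM in wild-type libraries, against 1791 and 1715 CPM in empty-vector libraries. The count lower lay between 14 and 16 without each of the 4 libraries in turn.

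Hmgcs1, which makes HMG-CoA, was at 77.5 and 80.4 CPM in wild-type libraries, against 139 and 142 CPM in empty-vector libraries (-0.83 ± 0.067, adjusted p = 2.6e-08). Hmgcs1 lies in the lowered run of chromosome 13, where its neighbours had a median of -0.37. Enzymes on other chromosomes were lower as well. Fdps, which makes farnesyl diphosphate (chromosome 3), was at 170 and 169 CPM in wild-type libraries, against 293 and 254 CPM in empty-vector libraries (-0.69 ± 0.069, adjusted p = 6.3e-07). Acat2, at the entry of the pathway (chromosome 17), was at 59.2 and 61.9 CPM in wild-type libraries, against 97.3 and 92.7 CPM in empty-vector libraries (-0.65 ± 0.072). Dhcr7, which makes the last double-bond reduction of one branch, was at 11.9 and 11.4 CPM in wild-type libraries and 18 and 17.4 CPM in empty-vector libraries (-0.61 ± 0.1). In these genes, as in Idi1 (-0.59 ± 0.077), no wild-type library reached an empty-vector library. Among the 16 enzymes whose neighbours had a median within 0.1 of 0, 14 were called lower. The 4 not called were Hsd17b7 (-0.11), Ebp (0.01), Ggps1 (0.01) and Tm7sf2 (0.07).

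The sterol sensors and targets outside the pathway followed in part. Of 13 SREBP regulators and uptake genes 6 were called lower and none higher (4 or 5 lower with a library left out). Insig1, the sterol-responsive retention factor, was at 87.8 and 83.4 CPM in wild-type libraries and 121 and 116 CPM in empty-vector libraries (-0.47 ± 0.064, adjusted p = 3e-05), whereas Insig2 (0.16), Scap (-0.12) and the site-1 protease gene Mbtps1 (-0.01) were not called. Srebf2, the gene of the sterol-regulating factor itself, was called (-0.27 ± 0.064), but not with empty-vector replicate 2, wild-type replicate 1 or wild-type replicate 3 left out (adjusted p of 0.067, 0.051 and 0.065). Srebf1 was called (-0.23 ± 0.075, adjusted p = 0.044) and was not called with RLE scaling, upper-quartile scaling or DESeq2, or without any 1 of the 4 libraries (0.1 to 0.21). None of 8 tested genes of LXR and sterol efflux was called, with Abca1 at 0.51 and Apoe at 0.72, both weakly expressed.

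Of 16 tested genes of fatty acid synthesis and desaturation 5 were lower and none higher. Scd2, a stearoyl-CoA desaturase, was at 243 and 227 CPM in wild-type libraries, against 411 and 404 CPM in empty-vector libraries (-0.8 ± 0.068, adjusted p = 7.6e-08). Fads2 (-0.53 ± 0.064) and Fads1 (-0.4 ± 0.064), the desaturases of polyunsaturated fatty acids, fell as well. All 3 lie on chromosome 19, where their neighbours had medians of 0.1 to 0.15, in the opposite direction. Elovl6 (-0.36 ± 0.069) and Acsl3 (-0.46 ± 0.08) were the other 2. Fasn (0.07), Acaca (-0.13), Acly (0.1) and Scd1 (-0.03) were not called.

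**Figure D4:**
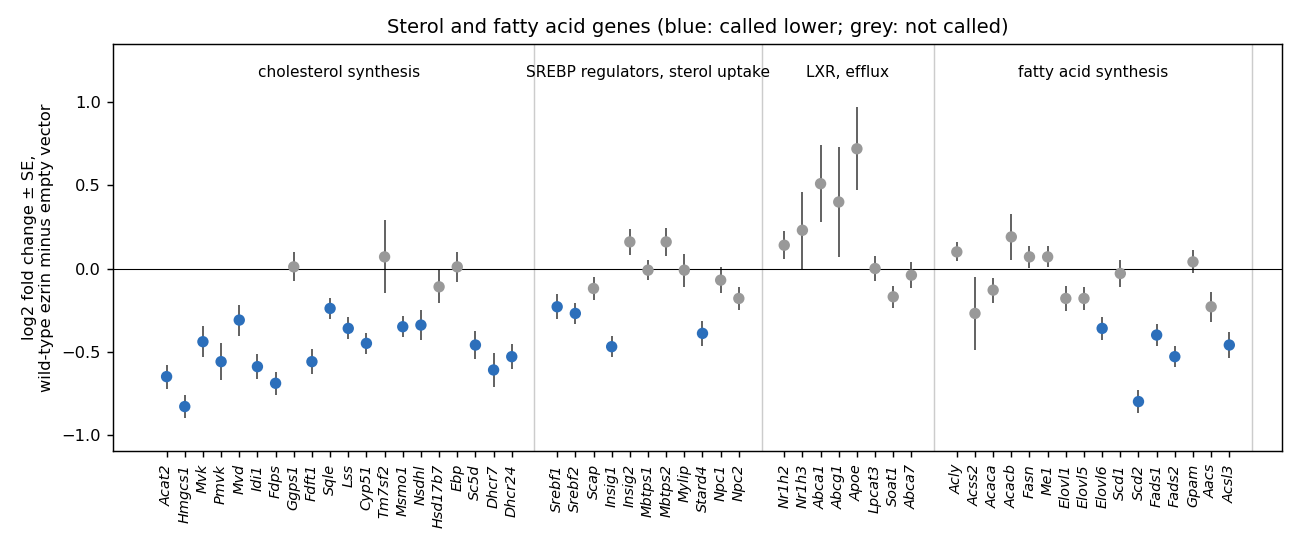
Log2 fold change ± SE, wild-type ezrin minus empty vector, of tested sterol and fatty acid genes, without 3 that are not reported here; blue points were called lower and grey points were not called. 16 of the 20 cholesterol synthesis enzymes shown are blue, none of the LXR and efflux genes is, and Hmgcs1 and Scd2 lie lowest, at -0.83 and -0.8.

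Hmgcs1 is printed as the enzyme promoter that holds the sterol-response letters. TCACNCCAC was searched on both strands of the same windows and was in 1 of 19 promoters of the enzymes (5.26%), against 1.24% of all promoters. CCAAT, the site of the NF-Y factor that works beside SREBP, was in 15 of 19 (78.9%), against 37.4% of all. Both shares were taken over the enzymes, called or not, and the uncalled Hsd17b7, Ebp, Ggps1 and Tm7sf2 all held CCAAT. The promoter is chr13:119690101-119690400, plus strand (RefSeq, GRCm38.p6), with the match at -137 in capitals. The bases after the start that this position is counted from were not found unbroken in an Hmgcs1 transcript of GENCODE M21. Whether that start is a transcript start there was not checked.
Hmgcs1: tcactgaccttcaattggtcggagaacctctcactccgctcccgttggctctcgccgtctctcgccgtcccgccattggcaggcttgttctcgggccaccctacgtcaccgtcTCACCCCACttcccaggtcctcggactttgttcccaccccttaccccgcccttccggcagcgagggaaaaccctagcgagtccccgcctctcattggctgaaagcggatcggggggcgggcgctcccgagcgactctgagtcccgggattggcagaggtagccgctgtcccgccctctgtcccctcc

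The calls among cell cycle genes were all decreases, of small size. Of 33 tested genes of G2 and mitosis, which build the spindle and drive entry into division, 19 were called lower and none higher (median -0.24), with 6 to 15 lower when 1 of the 4 libraries was left out. Ccnb1, cyclin B1, was at 199 and 208 CPM in wild-type libraries, against 297 and 301 CPM in empty-vector libraries (-0.55 ± 0.062, adjusted p = 2.7e-06). Ube2c, which charges the anaphase-promoting complex with ubiquitin, was at 153 and 165 CPM in wild-type libraries, against 219 and 220 CPM in empty-vector libraries (-0.47 ± 0.068). Tpx2, a spindle assembly factor, was at 216 CPM in both wild-type libraries and at 275 and 282 CPM in empty-vector libraries (-0.37 ± 0.066). Their neighbours were lower too: Ccnb1 lies in the chromosome 13 run (neighbour median -0.34) and Tpx2 and Ube2c in that of chromosome 2 (-0.25 and -0.13). Ccna2, cyclin A2 on chromosome 3, was at 286 and 294 CPM in wild-type libraries, against 355 and 373 CPM in empty-vector libraries (-0.33 ± 0.064, adjusted p = 0.0012). Of the 24 members with neighbours within 0.1 of 0, 15 were called lower. Mki67 (-0.1), Top2a (0.04) and Birc5 (0.1) were not called.

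Fewer replication genes were called. Of 38 tested genes of DNA replication and G1/S 14 were called lower and none higher (median -0.18), but only 2 to 8 with 1 of the 4 libraries left out, and 8 with upper-quartile scaling. Uhrf1, which guides DNA methylation at the fork, was at 308 and 307 CPM in wild-type libraries, against 382 and 367 CPM in empty-vector libraries (-0.28 ± 0.057, adjusted p = 0.0017). The helicase genes Mcm3 (-0.1), Mcm5 (-0.06) and Mcm6 (-0.06) were not called. None of 19 CDK inhibitor and p53 target genes was called, Cdkn1a (0.02) and Mdm2 (0.03) among them. Of replication-dependent histones, whose mRNAs mostly lack the poly-A tail that the library selects, 3 of 10 tested were called higher, H2bc4, for instance, at 4.25 and 3.88 CPM in wild-type libraries and 1.64 and 1.91 CPM in empty-vector libraries (1.19 ± 0.23).

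The promoter of Ube2c is shown for the CHR letters of mitotic genes, read by the MuvB complexes. TTTGAA, on either strand, was in 19 of 27 promoters of the mitotic list (70.4%), against 17.9% of all promoters. The E2F-type TTTNGCGC was in 10 of 35 promoters of the replication list (28.6%), against 1.38%. Both shares were taken over tested members, called or not, and describe the lists rather than the differences. Mcm3, Mcm5 and Mcm6, which were not called, held the E2F-type letters. In chr2:164769679-164769978, plus strand (RefSeq, GRCm38.p6), the match at -29 is on the minus strand and stands in capitals.
Ube2c: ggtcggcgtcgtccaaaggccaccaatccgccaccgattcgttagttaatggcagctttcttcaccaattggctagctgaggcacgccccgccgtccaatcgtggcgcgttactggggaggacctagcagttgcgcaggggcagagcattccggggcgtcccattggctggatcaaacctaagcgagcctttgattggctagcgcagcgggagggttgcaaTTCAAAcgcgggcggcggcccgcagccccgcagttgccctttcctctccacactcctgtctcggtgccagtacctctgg

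Matrix and adhesion genes were called in both directions. Small leucine-rich proteoglycans coat collagen fibrils, and 2 bone-matrix members that neighbour each other on chromosome 13 led them. Ogn, osteoglycin, was at 124 and 121 CPM in wild-type libraries, against 51.6 and 53.3 CPM in empty-vector libraries (1.23 ± 0.072, adjusted p = 1.5e-10). Omd, osteomodulin, was at 10.8 and 10.1 CPM in wild-type libraries, against 4.35 and 4.34 CPM in empty-vector libraries (1.26 ± 0.13). Prelp, which anchors basement membrane to connective tissue, fell to 14.6 and 16.5 CPM in wild-type libraries, against 25.5 and 27.2 CPM in empty-vector libraries (-0.76 ± 0.098). The other 6 of 9 tested members, Bgn (0.06) included, were not called. The median of the 9 was 0.78, but 0.43 without empty-vector replicate 3 and 0.03 without wild-type replicate 1. Abi3bp, another matrix gene, was at 20.3 and 20.1 CPM in wild-type libraries, against 8.59 and 9.31 CPM in empty-vector libraries (1.17 ± 0.12).

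Of 33 tested matrix glycoproteins (51 listed) 10 were called higher and 1 lower, with a median of 0.36. Thbs1, thrombospondin-1, was at 664 and 666 CPM in wild-type libraries, against 463 and 506 CPM in empty-vector libraries (0.46 ± 0.063, adjusted p = 3.9e-05). Tnxb, tenascin-X, was at 7.74 and 6.8 CPM in wild-type libraries and 2.77 and 3.24 CPM in empty-vector libraries (1.27 ± 0.17). Fibulin genes differed among themselves. Efemp2, fibulin-4, was higher (0.59 ± 0.071) on chromosome 19, where its neighbours had a median of 0.35, and Fbln2 fell to 257 and 249 CPM in wild-type libraries, against 332 CPM in both empty-vector libraries (-0.39 ± 0.063). Of 25 tested collagens (38 listed) 9 were higher and 2 lower (median 0.21), with 3 to 6 higher when 1 of the 4 libraries was left out. The median was 0.02 without wild-type replicate 1, 0.08 without empty-vector replicate 3 and 0.4 without wild-type replicate 3. Col3a1, a fibrillar chain, was at 595 and 550 CPM in wild-type libraries and 429 and 461 CPM in empty-vector libraries (0.36 ± 0.074), a call lost in 2 of the 4 fits with a library left out (adjusted p up to 0.059). Col1a1, a chain of collagen I, fell to 272 and 247 CPM in wild-type libraries, against 320 and 327 CPM in empty-vector libraries (-0.32 ± 0.07), but was not called when wild-type replicate 3 was left out (adjusted p = 0.077). Its partner Col1a2 was not called (0.04). Col4a5, of basement membranes, was at 8.21 and 9.88 CPM in wild-type libraries and 4.69 and 5.21 CPM in empty-vector libraries (0.87 ± 0.14).

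Of 16 collagen cross-linking and hydroxylation genes 4 were higher and 3 lower, with 2 or 3 higher when 1 of the 4 libraries was left out. Lox, lysyl oxidase, fell to 180 and 161 CPM in wild-type libraries, against 254 and 256 CPM in empty-vector libraries (-0.58 ± 0.08), and its relative Loxl4, on chromosome 19, was at 208 and 209 CPM in wild-type libraries, against 144 and 151 CPM in empty-vector libraries (0.5 ± 0.065, neighbour median 0.13). Of the proteases, Adamts2, which trims the amino end of procollagen, fell to 3.26 and 2.97 CPM in wild-type libraries, against 13.4 and 13.8 CPM in empty-vector libraries (-2.12 ± 0.15, adjusted p = 2.3e-09). Bmp1, which trims the other end, was lower too (-0.41 ± 0.087). Mmp9, a gelatinase, was at 126 CPM in both wild-type libraries and at 171 and 178 CPM in empty-vector libraries (-0.47 ± 0.071, neighbour median -0.14 on chromosome 2). Of 27 tested metalloproteinases and inhibitors 4 were higher and 4 lower, and with 1 of the 4 libraries left out 1 to 3 were higher and 2 to 4 lower.

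Integrins are the matrix receptors. Of 17 tested 6 were higher and 1 lower. The median of 0.33 was 0.05 without empty-vector replicate 2 and 0.1 without wild-type replicate 3, and of the 7 members with neighbours within 0.1 of 0, 3 were higher. Itga11, a collagen-binding alpha chain, was at 6.58 and 7.25 CPM in wild-type libraries, against 2.03 and 1.27 CPM in empty-vector libraries (2.06 ± 0.2, adjusted p = 4.4e-07). Itga10, of the same kind, was at 10.8 and 8.57 CPM in wild-type libraries, against 3.73 and 3.35 CPM in empty-vector libraries (1.45 ± 0.19). Itgb3, of the vitronectin receptor, was weak, at 4.6 and 2.97 CPM in wild-type libraries and 0.961 and 0.578 CPM in empty-vector libraries (2.28 ± 0.3, neighbour median 0.21 on chromosome 11). Itgb1, the shared beta chain of the collagen receptors, was not called (0.03). Itgb7, best known from lymphocytes, fell to 250 and 240 CPM in wild-type libraries, against 347 and 334 CPM in empty-vector libraries (-0.48 ± 0.061). Of 13 tested cadherins 4 were higher and 3 lower, and with 1 of the 4 libraries left out 2 or 3 were higher and 1 to 3 lower. That list also holds protocadherins and Fat genes, and Cdh26, described above, is not on it. Cdh11, of mesenchymal cells and osteoblasts, fell to 81.8 and 88 CPM in wild-type libraries, against 130 CPM in both empty-vector libraries (-0.62 ± 0.07, adjusted p = 3e-06). Fat1 was at 460 CPM in both wild-type libraries and at 273 and 327 CPM in empty-vector libraries (0.62 ± 0.11).

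Of 29 listed osteoblast regulators and bone matrix genes 13 were tested, and 7 of these were called higher and 1 lower. Without each of the 4 libraries in turn, 4 or 5 were higher and none lower. Bmp2, an inducer of osteoblasts, was at 22.7 and 25.5 CPM in wild-type libraries, against 10.6 and 11.7 CPM in empty-vector libraries (1.11 ± 0.11, adjusted p = 4.3e-07, neighbour median 0.14 on chromosome 2). Phex, a peptidase gene of phosphate balance, was at 11.6 and 9.94 CPM in wild-type libraries and 5.26 and 4.68 CPM in empty-vector libraries (1.11 ± 0.18, neighbour median 0.16 on chromosome X). Alpl, alkaline phosphatase, was at 9.95 and 9.25 CPM in wild-type libraries and 5.2 and 6.07 CPM in empty-vector libraries (0.77), and missed the threshold once empty-vector replicate 2 was left out (adjusted p = 0.054). The master regulator Runx2 did not pass (0.19). Spp1, osteopontin, was the 1 member called lower (-0.21 ± 0.06, adjusted p = 0.023), and its adjusted p reached 0.23 with a library left out.

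**Figure D5:**
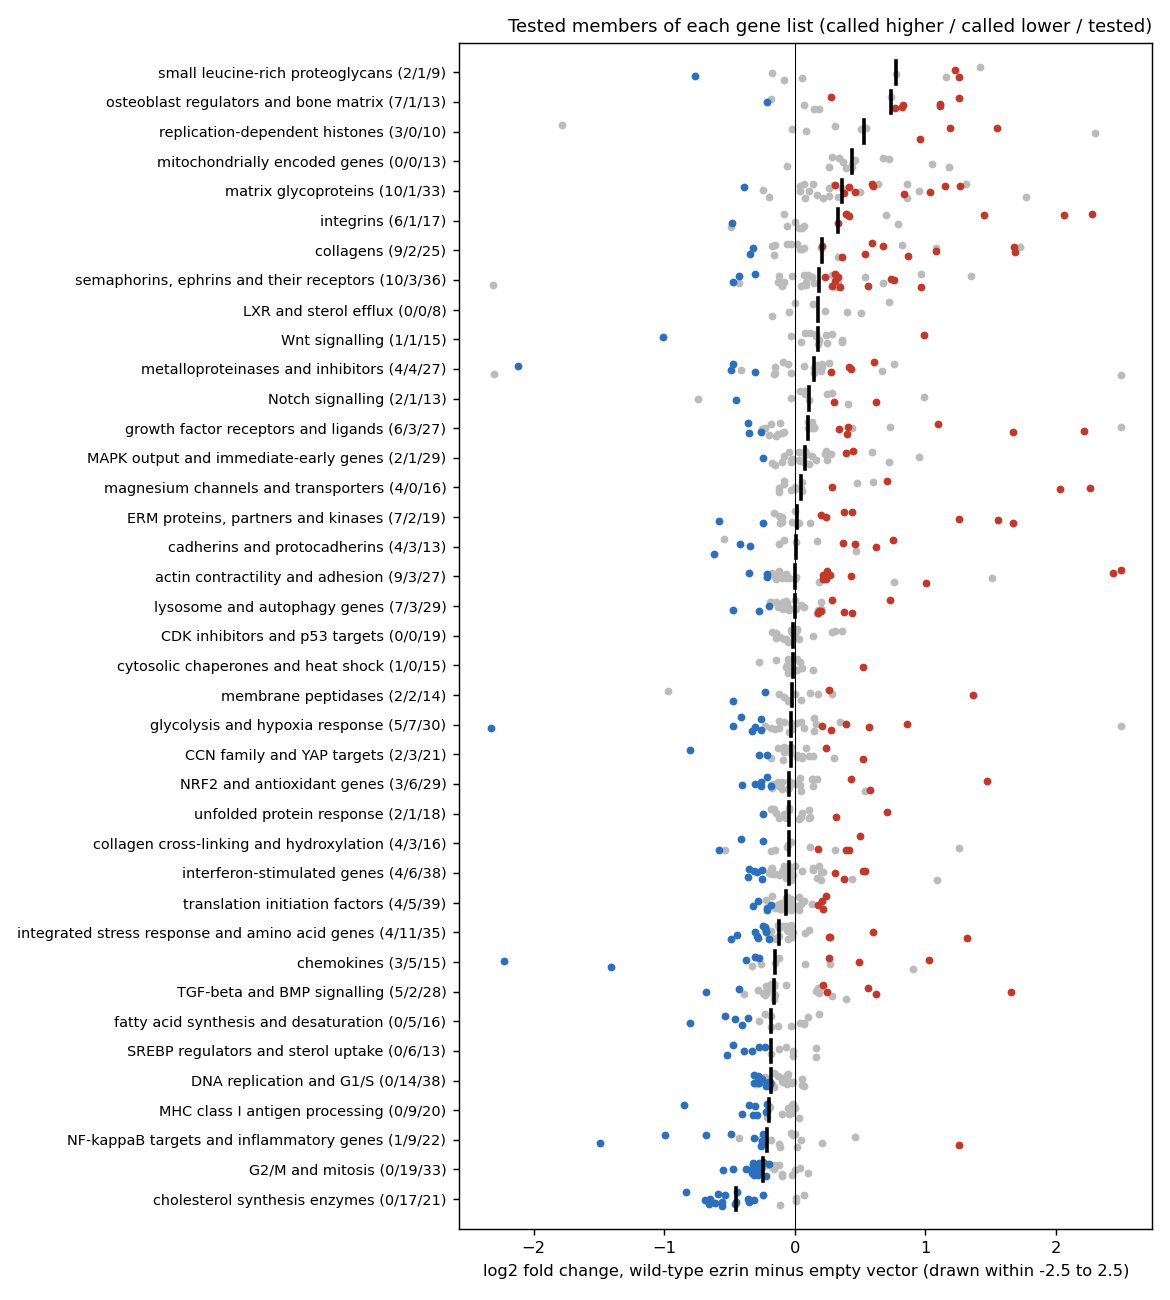
Log2 fold change, wild-type ezrin minus empty vector, of the tested members of each gene list (1 point a gene; red called higher, blue called lower, grey not called; black bars are list medians), with the counts beside each name. Cholesterol synthesis enzymes have a median of -0.45 and matrix glycoproteins of 0.36, and the proteoglycan median of 0.78 drops to 0.03 without wild-type replicate 1; over all tested genes the median is -0.01.

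Of 27 tested contractile and cytoskeletal genes 9 were higher and 3 lower, and the median was -0.00 with a sign that changes with the scaling. With 1 of the 4 libraries left out 3 to 6 were higher and 1 or 2 lower. Acta2, smooth muscle actin, was at 48 and 41.8 CPM in wild-type libraries, against 23.7 and 20.9 CPM in empty-vector libraries (1.01 ± 0.091, adjusted p = 1.6e-07). It lies on chromosome 19 with a neighbour median of 0.17. Mylk, which phosphorylates the myosin light chain, was at 166 and 167 CPM in wild-type libraries, against 119 and 129 CPM in empty-vector libraries (0.43 ± 0.063). Actb (-0.14), Tpm1 (-0.04), Flna (0.01) and the transcription factor Srf (0) were not called. Des, desmin, had 9 and 8 counts in wild-type libraries and 0 in both empty-vector libraries. Of 21 genes of the CCN family and YAP targets 2 were higher and 3 lower (1 higher and 1 or 2 lower with a library left out), and the classical targets Ccn2 (-0.04) and Ankrd1 (0.14) were not called.

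Signalling families held single genes with clear differences. Fstl1, a secreted modulator of BMP signals, fell to 70.4 and 65.1 CPM in wild-type libraries, against 120 and 116 CPM in empty-vector libraries (-0.8 ± 0.069, adjusted p = 7.7e-08). Ltbp3, which holds latent TGF-beta in the matrix, was at 233 and 219 CPM in wild-type libraries, against 151 and 155 CPM in empty-vector libraries (0.56 ± 0.062), on chromosome 19 with a neighbour median of 0.28. Jag1, a Notch ligand, was at 20.1 and 17.9 CPM in wild-type libraries and 12.3 CPM in both empty-vector libraries (0.62 ± 0.12, neighbour median 0.14). Of 36 tested semaphorin, ephrin and receptor genes 10 were higher and 3 lower, Sema3b (0.97 ± 0.2) and Sema6b (-0.47 ± 0.088) among them, with 2 to 5 higher and 1 or 2 lower when 1 of the 4 libraries was left out. The Ras and ERK response genes were seldom called: of 29 tested 2 were higher and 1 lower, against 1 and none with any 1 of the 4 libraries left out. Dusp6, a phosphatase that ERK induces, was at 71.1 and 67.9 CPM in wild-type libraries and 53.4 and 52.7 CPM in empty-vector libraries (0.39 ± 0.073), while Myc (0.11), Ccnd1 (-0.01) and Etv5 (0.08) were not called. Of 15 tested Wnt genes 1 was higher and 1 lower, the lower one not with any 1 of the 4 libraries left out.

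The integrated stress response was examined among stress and metabolic genes. ATF4 is the factor that this response translates when initiation is blocked, and it drives amino acid synthesis and tRNA charging. Of 35 tested genes 11 were lower and 4 higher (median -0.12), with 4 to 6 lower and 1 or 2 higher when 1 of the 4 libraries was left out. Asns, asparagine synthetase, was at 211 and 206 CPM in wild-type libraries, against 259 and 250 CPM in empty-vector libraries (-0.29 ± 0.058, adjusted p = 0.0017). Trib3, an ATF4 target, was at 34.3 and 34.2 CPM in wild-type libraries and 48.7 and 44.4 CPM in empty-vector libraries (-0.44 ± 0.081), in the lowered part of chromosome 2 (neighbour median -0.25). Nupr1, also induced by stress, was higher, at 83.3 and 68.8 CPM in wild-type libraries, against 51.2 and 48.8 CPM in empty-vector libraries (0.6 ± 0.088). Chac1 (-0.03), Sesn2 (-0.05) and Psat1 (-0.05) were not called. Of 18 genes of the unfolded protein response 2 were higher and 1 lower (1 or 2 and 0 or 1 with a library left out). Ern1, the sensor IRE1, was at 34.7 and 36.6 CPM in wild-type libraries, against 21.6 and 21.9 CPM in empty-vector libraries (0.71 ± 0.085, neighbour median 0.24 on chromosome 11), and its target Xbp1 was not called (-0.07).

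Genes of glycolysis and hypoxia were mixed, with 5 higher and 7 lower of 30 tested, and 1 or 2 higher and 2 to 5 lower when 1 of the 4 libraries was left out. Egln3, an oxygen sensor that hypoxia induces, was at 16 and 15 CPM in wild-type libraries, against 7.69 and 9.43 CPM in empty-vector libraries (0.86 ± 0.12). Of 29 NRF2 and antioxidant genes 3 were higher and 6 lower, with 1 to 4 lower and 2 higher when 1 of the 4 libraries was left out. Tkt, of the pentose phosphate pathway, fell to 256 and 249 CPM in wild-type libraries, against 331 and 334 CPM in empty-vector libraries (-0.4 ± 0.066), and Nqo1, a standard NRF2 target, had a difference of -0.3 but did not pass with empty-vector replicate 2 or wild-type replicate 1 left out (adjusted p of 0.076 and 0.067). Of 29 lysosome and autophagy genes 7 were higher and 3 lower, but 1 or 2 in each direction when 1 of the 4 libraries was left out. Gaa, lysosomal alpha-glucosidase, was at 67.6 and 62.3 CPM in wild-type libraries, against 38.1 and 39.9 CPM in empty-vector libraries (0.73 ± 0.083), in the raised run of chromosome 11 (neighbour median 0.3). None of the 13 mitochondrially encoded genes was called, although 12 had a positive difference and their median was 0.44 (0.25 without empty-vector replicate 3). They took 1.21% and 1.33% of counts in wild-type libraries and 1.09% and 0.87% in empty-vector libraries. Of 39 translation initiation factors 4 were higher and 5 lower (0 or 1 and 1 or 2 with a library left out), and of 15 cytosolic chaperones 1, Hspa1b, was called (0.52 ± 0.086), a gene with a near-identical copy.

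The levels in the other 3 lines show where the means of the 2 lines lay for a gene. For 10 of the 15 largest decreases and 9 of the 15 largest increases, the empty-vector mean lay outside the range of the means of the other 4 lines. This was so for 53% of called genes and 33.2% of all tested genes. The wild-type mean lay outside for 5 of the 15 increases and 2 of the 15 decreases. It did so for 24.9% of called genes and 20.2% of all tested genes. Since the 30 genes were picked for this contrast, a high share is built in. Cxcl5 averaged 21.5 CPM in parental, 50.9 CPM in T567A and 27.6 CPM in T567D libraries, beside 32 CPM in wild-type and 150 CPM in empty-vector libraries. Foxd1, a forkhead factor gene in the lowered run of chromosome 13, averaged 22.4 CPM in parental, 8.75 CPM in T567A and 11.6 CPM in T567D libraries, beside 8.86 CPM in wild-type and 27.7 CPM in empty-vector libraries. For Igfbp4 the empty-vector mean of 11.9 CPM was lowest, with 37.8 CPM in wild-type, 151 CPM in parental, 48.5 CPM in T567A and 29.9 CPM in T567D libraries. In other genes it was the wild-type mean that lay outside the other 4. Plce1 averaged 26.9 CPM in wild-type libraries, 10.1 CPM in empty-vector, 0.262 CPM in parental, 12.9 CPM in T567A and 14.8 CPM in T567D libraries. Hmgcs1 was lowest in the wild-type line, at 78.9 CPM, but close to the 84.9 CPM of T567D libraries. It averaged 141 CPM in empty-vector, 114 CPM in parental and 154 CPM in T567A libraries.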

How the data were processed

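Per the labels' protocols, poly-A RNA was made into dUTP strand-marked libraries and read on DNBSEQ. The submitters' processing notes name GRCm38 as the build. The authors deposited raw counts per gene name and RPKM values for each of 10 libraries. The deposited counts were whole numbers, and the deposited RPKM divide them by gene length and a library total other than the summed counts. Aligner, annotation and strand setting of the counting: not given in the sources used here. Overlapping genes, antisense genes and near-identical copies are therefore uncertain. Of 41743 names, 173 are numbered copies. No 2 libraries were identical, and the chi-square of counts per degree of freedom between libraries of a line was 2.44 (wild type) and 3.16 (empty vector). It was higher in the lines that entered the same fit, at 8.45 for T567A, 4.35 for T567D and 4.19 for parental libraries.

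Counts were fitted with edgeR 4.0.16 (R 4.3.3) after filterByExpr (minimum count 10, minimum total 15) and TMM scaling. The robust quasi-likelihood model took the 10 libraries together, with a mean for each of the 5 lines, which leaves 5 residual degrees of freedom. It was also run on counts simulated with means and dispersions taken from these data. Tests were two-sided, and calls had a Benjamini-Hochberg adjusted p under 0.05. Against 0 counts, folds used a floor of 3 counts per library (0.17 to 0.175 CPM), and an interval for few counts is exact binomial at 95%, for counting error only. Positions are of GENCODE M21 by symbol, with 40501 names matched and 298 more by synonym. The members and lists were chosen with earlier results of these data known. Named by rule were Ezr, Msn and Rdx, the 15 largest called increases and decreases at 10 CPM or more without overlap (no pseudogenes or unnamed models), up to 6 called members of lists with 25% or more called and up to 2 of others, and genes near 0 in one line. Other genes are named as uncalled or neighbouring examples, chosen after their values were seen. DESeq2 1.42.0 was an alternative, as were RLE or upper-quartile scaling, other filters, the replicate block, the 4 libraries alone, limma 3.58.1 on log2(RPKM + 1) and log2(RPKM + 0.1), stricter thresholds and leaving out each library. Some genes are not reported here. Figures used matplotlib 3.10.9.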

Additional observations from a re-analysis of the deposited data

How the results depend on the processing

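Ezr was called under all 21 alternatives, at 1.64 to 1.71. The 1966 calls (1039 higher, 927 lower, 221 over 2-fold) became 1301 with DESeq2 (576 lower, 134 over 2-fold), 2955 in a fit of the 4 libraries alone (1589 higher), 1000 at an adjusted p under 0.01 (572 higher, 428 lower, 143 over 2-fold) and 87 against a 1.5-fold null (72, 15 and 82). A filter of 5 CPM left 87 over 2-fold and limma on log2(RPKM + 1) left 21. Chosen after seeing the data, restriction to genes with a neighbour median within 0.1 gave 1272 calls (596 higher), and restriction to 10 CPM or more gave 37 over 2-fold. Leaving out a library gave 853 to 2515 calls, 453 to 1345 higher, 377 to 1170 lower and 136 to 236 over 2-fold. Counts were lowest without empty-vector replicate 2 (853) and wild-type replicate 1 (871), where a line has 1 library assumed to vary like the others. With the replicate number as a block, 1082 genes were called (603 higher, 479 lower), among them 11 of the 13 mitochondrially encoded genes, all higher, none of which was called by the test reported. The 2 lines share only number 3, whose deviations had a correlation of -0.0249. With 2 libraries a line, this single value cannot show whether the numbers mark samples handled together. Of 191 named genes called, 115 kept the call without each of the 4 libraries. Only Msn changed sign, at -0.00 by the test reported, -0.03 to 0.01 with a library left out, 0.01 with RLE scaling, DESeq2 and the 4 libraries alone, 0.02 with the 5 CPM filter and the block, 0.03 with upper-quartile scaling and 0.00 in the others. Causes were not tested. With 2 libraries a line, small differences of weakly expressed genes were not detectable.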
